A study of Mus musculus with 8 samples.

Results

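The comparison described here set cells after 3 days of culture (Day3) against established embryonic germ (EG) cells. Its members are the 2 Day3 and 2 EG arrays, 4 of the 8 arrays in the series, and they were chosen by their labels, with every probe of the value table included. All samples were of mouse and carried a Nanog-GFP reporter, a fluorescent marker of a core pluripotency gene, and all were labelled as primordial germ cells by cell type. The other 4 arrays hold primordial germ cells of stage E11.5 (called E11.5 PGC here, 2 arrays) and the culture after 6 days (Day6, 2 arrays). Day3, Day6 and EG samples all carry 2i+A83 in their names. Per the labels this means 1 µM PD325901, which blocks MEK, 3 µM CHIR99021, which blocks GSK3, and 250 nM A83-01, which blocks the receptors for Activin, Nodal and TGF-beta. The medium held 15% knockout serum replacement, LIF and bFGF. The same medium and inhibitor text stands on all 8 samples. The series' design text says that candidate cells were purified by flow sorting during culture, without saying which arrays hold sorted cells. The sex of the embryos, the number of EG lines and their passage are not stated in any source used here. The labels also do not say whether the 2 arrays of a group came from separate cultures or animals, so p-values measure only the spread between these samples, which may be technical.

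Primordial germ cells are the precursors of eggs and sperm. They share many transcription factors with pluripotent stem cells but do not normally form stem cell lines. When cultured with suitable growth factors or inhibitors, some of them lose their germ cell programme and give rise to EG cells, which resemble embryonic stem cells. The comparison asks what still separated the cells after 3 days from the cells at the end of that conversion.

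Of 20554 probes measured on both arrays of both groups, 292 differed (1.42%). EG cells were higher at 216 of them (1.05%) and lower at 76 (0.37%), by limma with Benjamini-Hochberg adjustment over all probes tested. The median change was 2.69 among the probes that rose and fell by 2.44 among those that fell, on the log2 scale, and the smallest change that passed was 1.45 in size. Named genes that passed included targets of Nodal signalling, genes of the cleavage-stage embryo and the X-linked regulator Nr0b1 on the higher side. On the lower side they included the germ cell factor Dmrt1, the imprinted gene Plagl1 and the Ets factor Spic. Over all probes the median change was -0.04. At one probe per gene, 147 of 14656 genes rose and 65 fell. Both EG arrays lay above both Day3 arrays at 4602 probes (22.4%) and below them at 5676 (27.6%), so groups that do not overlap are common here.

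The Day3 arrays differed more from each other than the EG arrays did. Day3 replicates 1 and 2 differed from each other by a median of 0.473 on the log2 scale per probe, and 17.6% of probes differed by more than 1. The EG arrays differed from each other by a median of 0.211, with 3.08% of probes over 1. Day3 replicate 1 lay no farther from the EG arrays (medians of 0.425 and 0.417) than from Day3 replicate 2, while Day3 replicate 2 lay at 0.506 and 0.513 from them. The array names fall into 2 series. Series A holds both EG arrays with replicate 1 of each other group, and series B holds replicate 2 of those 3 groups. With array series as a block in the model, 1167 probes differed (5.68%), 654 higher (3.18%) and 513 lower (2.5%) in EG, and all 292 probes above were among them in the same direction. That fit takes the 2 series to differ alike in all groups, since EG has no array in series B.

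The number of probes past the threshold also depended on single arrays. It was 78 without Day3 replicate 2 and 95 without either E11.5 PGC array. It was 7 without EG replicate 1 and 1 without EG replicate 2. Without Day3 replicate 1, limma called 0 probes at the adjusted threshold, while 3275 had an unadjusted p under 0.05 (3244 with all arrays). In that fit the lone Day3 array is of series B and both EG arrays are of series A, so culture stage and array series cannot be told apart. It tested 21118 probes, against 20554 with all arrays. Fits without 1 array leave one group with a lone array, which is assumed to vary like the others. All 292 probes kept the sign of their change in each of these fits, but no gene of the lists described below passed without Day3 replicate 1 or without either EG array. A change of sign was not possible in these fits, since the Day3 and EG readings do not overlap at any of the 292 probes. The plot of probes by setting shows the number past the threshold in both directions.

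**Figure D1:**
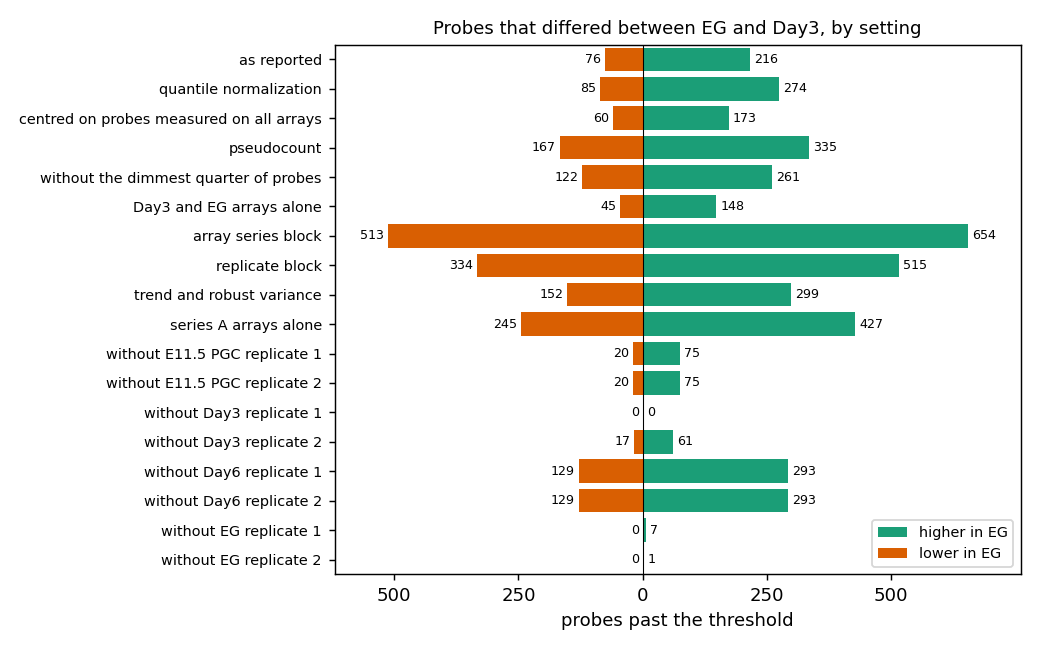
Number of probes past an adjusted p of 0.05 for EG against Day3 (x axis), higher in EG to the right and lower to the left, for the fit as reported and each alternative (y axis). The fit as reported gave 216 higher and 76 lower; the array series block gave 654 and 513, and leaving out Day3 replicate 1 gave 0 in both directions.

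Nodal and Activin signal through the receptors that A83-01 blocks, and the genes they switch on include their own inhibitors. Of 14 measured genes of the TGF-beta/Activin target list, 3 rose in EG (Lefty1, Tdgf1 and Smad7) and 0 fell. Over all probes 1.05% rose and 0.37% fell, or 3.18% and 2.5% with the array series block. Lefty1, a secreted inhibitor of Nodal that is itself a Nodal target, read 10.8 and 17.4 on the Day3 arrays and 551 and 434 on the EG arrays, in units of scaled intensity. Both EG arrays were far above both Day3 arrays. The log2 change was 5.16 ± 0.35 (± standard error, with n = 2 arrays in each group; adjusted p = 0.00758). Lefty1 was also bright in E11.5 PGC (400.4 and 269) and still dim at Day6 (13.2 and 14.0), so among the 4 groups the high readings stood at both ends.

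Tdgf1, which encodes the Nodal co-receptor Cripto, followed another course. Its readings were 146 and 183 in E11.5 PGC, then 1173 and 388 at Day3, 2344 and 2529 by Day6 and finally 5215 and 8475 in EG. Each culture group lay above the one before it with no overlap. EG exceeded Day3 by 3.30 ± 0.53 (adjusted p = 0.0397), and by 2.50 within series A. Smad7, an intracellular inhibitor of the pathway, read 46.1 and 28.9 at Day3 and 161 and 149 in EG, a rise of 2.08 ± 0.30 (adjusted p = 0.0308). Its Day6 readings, 56.0 and 52.3, lay near those of Day3.

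The other members of the list did not pass. Pmepa1, a membrane protein that dampens the same pathway, read 74.7 and 29.1 at Day3 and 307 and 429 in EG (2.96 ± 0.57, adjusted p = 0.0612, and 0.0138 with the array series block). Nodal itself read 209.5 and 138 at Day3 and 503 and 442 in EG (1.47 ± 0.30, adjusted p = 0.0686, and 0.0313 with the block). Neither pair of groups overlapped. Skil, a repressor of Smad activity, was dim in both groups (7.69 and 7.61 against 12.8 and 12.3), while E11.5 PGC read 57.8 and 55.1. The median change of the list was 0.74 (0.64 within series A), against -0.04 over all probes. The number of members that rose was 5 with the block, 1 with the Day3 and EG arrays alone, 1 without Day3 replicate 2 or either E11.5 PGC array, and 0 without Day3 replicate 1 or either EG array. In bulk RNA, fewer cells of a type and less RNA per cell cannot be told apart.

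Zscan4c, a gene of the cleavage-stage embryo, had the largest rise of any gene tested with a symbol and past the threshold, and other genes of the oocyte and early embryo rose with it. Cultures of pluripotent cells are known to contain a few cells that express such genes for a time, and Zscan4 genes are their usual markers. Of 24 measured genes of the list, 6 rose (Zscan4c, Obox1, Nlrp4f, Padi6, Npm2 and Ooep) and 0 fell. Over all probes 1.05% rose and 0.37% fell, or 3.18% and 2.5% with the array series block. Zscan4c, which encodes a zinc finger protein, read 1.44 and 16.1 at Day3, then 45.6 and 100.2 by Day6 and 1368 and 4256 in EG. The EG readings were higher by 8.97 ± 1.10 on the log2 scale (adjusted p = 0.0192), or by 8.36 after adding a pseudocount of 1.614. E11.5 PGC read 2.79 and 1.71.

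Obox1, a homeobox gene of oocytes and early embryos, read 3.55 and 3.18 at Day3 and 104 and 474 in EG (6.05 ± 0.84, adjusted p = 0.0256). Both Day3 readings were under 4.24, the intensity taken here as near the floor, and the change was 5.49 with the pseudocount. Only one Day6 array, at 19.7, stood above the Day3 readings by more than a few units, the other being at 4.61. Zscan4c and Obox1 belong to families of near-identical copies, so these probes may read several genes and the values are uncertain for any single copy.

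The other 4 encode proteins of the egg. Ooep, part of the subcortical maternal complex, read 929 and 821 at Day3, then 1926 and 2348 by Day6 and 3344 and 3290.1 in EG (1.93 ± 0.26, adjusted p = 0.0246). It was already bright at Day3, and the readings of these 3 groups did not overlap. Padi6, an egg protein of the arginine deiminase family, read 16.9 and 11 at Day3 and 61.1 and 64.1 in EG, with Day6 at 14.7 and 18.4 (2.20 ± 0.30, adjusted p = 0.0254). Nlrp4f rose by 3.49 ± 0.57 (adjusted p = 0.0411) and had reached 37.5 and 20.6 by Day6, against 30.3 and 33.9 in EG. Npm2, a histone chaperone of the egg, rose by 1.96 ± 0.33 (adjusted p = 0.0434). With the Day3 and EG arrays alone none of these 4 passed (adjusted p = 0.0523 for Ooep, 0.0546 for Padi6, 0.053 for Nlrp4f and 0.0661 for Npm2). Nlrp4f also did not pass with quantile normalization (0.0545), nor Npm2 with centring on probes measured on all arrays (0.0532).

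Not all genes of the egg moved this way. Khdc3, another gene of the subcortical maternal complex, read 374 and 279.5 at Day3 and 163 and 175 in EG (-0.94 ± 0.38, adjusted p = 0.299). The median change of the 24 genes was 0.34. The list gave 7 genes that rose with the array series block, 2 with the Day3 and EG arrays alone, 1 without Day3 replicate 2 and 0 without Day3 replicate 1, either EG array or either E11.5 PGC array.

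**Figure D2:**
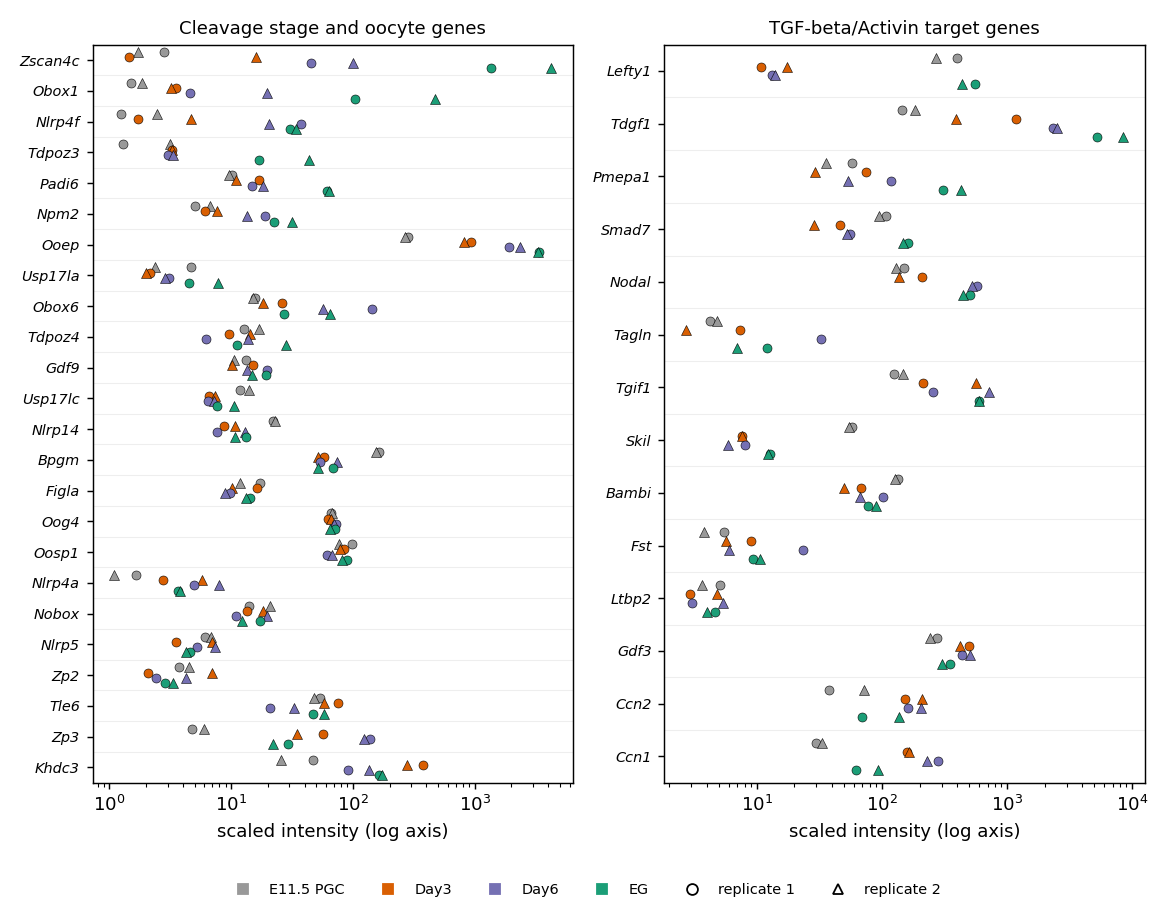
Scaled intensity on a log axis (x) for each measured gene (y) of the cleavage-stage and oocyte list (left) and the TGF-beta/Activin target list (right), with colours for the 4 groups and symbols for the replicate. Zscan4c reached 1368 and 4256 in EG against 1.44 and 16.1 at Day3, and Lefty1 was high in E11.5 PGC and EG and low at Day3 and Day6.

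Promoters of the cleavage-stage genes that rose are shown because most of them hold few CG pairs, the sites at which DNA can be methylated. Of these 6 genes, 5 have an entry in the RefSeq promoter table (build GRCm38.p6). Each line gives the 250 bases before the transcription start, 5′ to 3′ on the gene's strand, with every CG in capitals. They lie at chr7:11005495-11005744 (Zscan4c, plus strand), chr7:15547007-15547256 (Obox1, plus), chr13:65205717-65205966 (Nlrp4f, minus), chr4:140742644-140742893 (Padi6, minus) and chr9:78378589-78378838 (Ooep, minus).
Zscan4c: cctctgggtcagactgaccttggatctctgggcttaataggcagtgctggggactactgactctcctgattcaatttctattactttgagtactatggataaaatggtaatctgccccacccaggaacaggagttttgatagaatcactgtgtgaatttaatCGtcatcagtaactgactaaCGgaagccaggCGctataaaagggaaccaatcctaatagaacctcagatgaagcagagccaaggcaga
Obox1: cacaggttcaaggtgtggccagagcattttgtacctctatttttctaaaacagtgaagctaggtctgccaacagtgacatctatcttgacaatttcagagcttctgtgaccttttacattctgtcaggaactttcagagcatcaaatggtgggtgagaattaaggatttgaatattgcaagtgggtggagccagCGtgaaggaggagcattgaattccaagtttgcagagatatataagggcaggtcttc
Nlrp4f: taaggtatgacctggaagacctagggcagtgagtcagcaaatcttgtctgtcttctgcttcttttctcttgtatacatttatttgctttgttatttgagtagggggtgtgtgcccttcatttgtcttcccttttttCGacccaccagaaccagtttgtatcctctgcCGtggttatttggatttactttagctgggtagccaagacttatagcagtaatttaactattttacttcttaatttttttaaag
Padi6: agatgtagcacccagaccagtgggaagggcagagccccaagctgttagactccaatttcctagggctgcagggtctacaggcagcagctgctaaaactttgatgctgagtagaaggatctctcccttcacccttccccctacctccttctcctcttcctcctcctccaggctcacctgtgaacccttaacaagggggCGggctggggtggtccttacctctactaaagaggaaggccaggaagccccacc
Ooep: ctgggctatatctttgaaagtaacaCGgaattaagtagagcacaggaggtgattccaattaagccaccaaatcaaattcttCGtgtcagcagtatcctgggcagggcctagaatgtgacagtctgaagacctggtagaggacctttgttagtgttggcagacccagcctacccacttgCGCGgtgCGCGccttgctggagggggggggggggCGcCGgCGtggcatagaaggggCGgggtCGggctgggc
The number of CG pairs was 3 in Zscan4c, 1 in Obox1, 2 in Nlrp4f, 1 in Padi6 and 11 in Ooep. Over the 11753 measured genes with such a window the median was 13. It was 8 for the 114 genes that rose and have an entry, and 15 for the 49 that fell. Windows with at most 5 CG pairs made up 25% of all genes, 34.2% of those that rose and 26.5% of those that fell. The letters TATAAA, on either strand, stood in 10.7% of all windows, 16.7% of those of genes that rose and 4.08% of those of genes that fell; Zscan4c is the one printed here that holds them. These are descriptions of the sequence. DNA methylation was not measured on these arrays.

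Among the 15 genes with the largest rises, several are known from differentiated tissues. Nphs1, which encodes nephrin, an adhesion protein of kidney podocytes, read 5.05 and 4.50 at Day3 and 436 and 269.7 in EG. That rise, 6.17 ± 0.33 (adjusted p = 0.00359), was also past the threshold without either EG array. E11.5 PGC read 78.7 and 67.0, and Day6 13.7 and 18.1, so the Day3 readings were the lowest of the 4 groups. Klk8, a secreted serine protease, had the same order of groups, with 39.1 and 45.3 in E11.5 PGC, then 1.94 and 2.78 at Day3, 15.6 and 22.7 by Day6 and finally 41.0 and 47.5 in EG (4.25 ± 0.32, adjusted p = 0.00758).

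Another set was dim in E11.5 PGC and Day3 and bright by Day6. Armcx2, an X-linked gene of the armadillo-repeat family, read 3.89 and 7.19 at Day3, then 82.6 and 65.1 by Day6 and 140.3 and 102 in EG (4.50 ± 0.40, adjusted p = 0.00899). Laptm5, a lysosomal membrane protein of blood cells, read 13.8 and 8.54 at Day3, then 205 and 96.0 by Day6 and 200.2 and 261 in EG (4.40 ± 0.43, adjusted p = 0.0102). The Day6 and EG readings of Laptm5 overlapped. Myo1f, an unconventional myosin (5.17 ± 0.54, adjusted p = 0.0121), Pdcl2, a phosducin-like gene of germ cells (4.39 ± 0.42, adjusted p = 0.00987), and Stmn2, a microtubule-binding protein of neurons (4.37 ± 0.67, adjusted p = 0.0347), had the same order.

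Robo4, a receptor of endothelial cells, stayed low longer. It read 2.45 and 3.41 at Day3, then 7.48 and 5.21 by Day6 and 53.5 and 68.1 in EG (4.38 ± 0.32, adjusted p = 0.00758). The rest of the leading 15 were the protease inhibitors Spink1 (4.92 ± 0.54) and A2m (4.77 ± 0.59), the eye homeobox gene Vax2 (4.71 ± 0.45) and the gut defensin Defcr3 (4.42 ± 0.42), with adjusted p between 0.00987 and 0.0192. Defcr3 belongs to a family of near-identical copies. Both Day3 readings were near the floor for Robo4, Klk8, Spink1, A2m and Defcr3, as for 43 of the 216 probes that rose; with the pseudocount their changes were 3.78, 3.53, 4.18, 4.11 and 3.70.

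**Figure D3:**
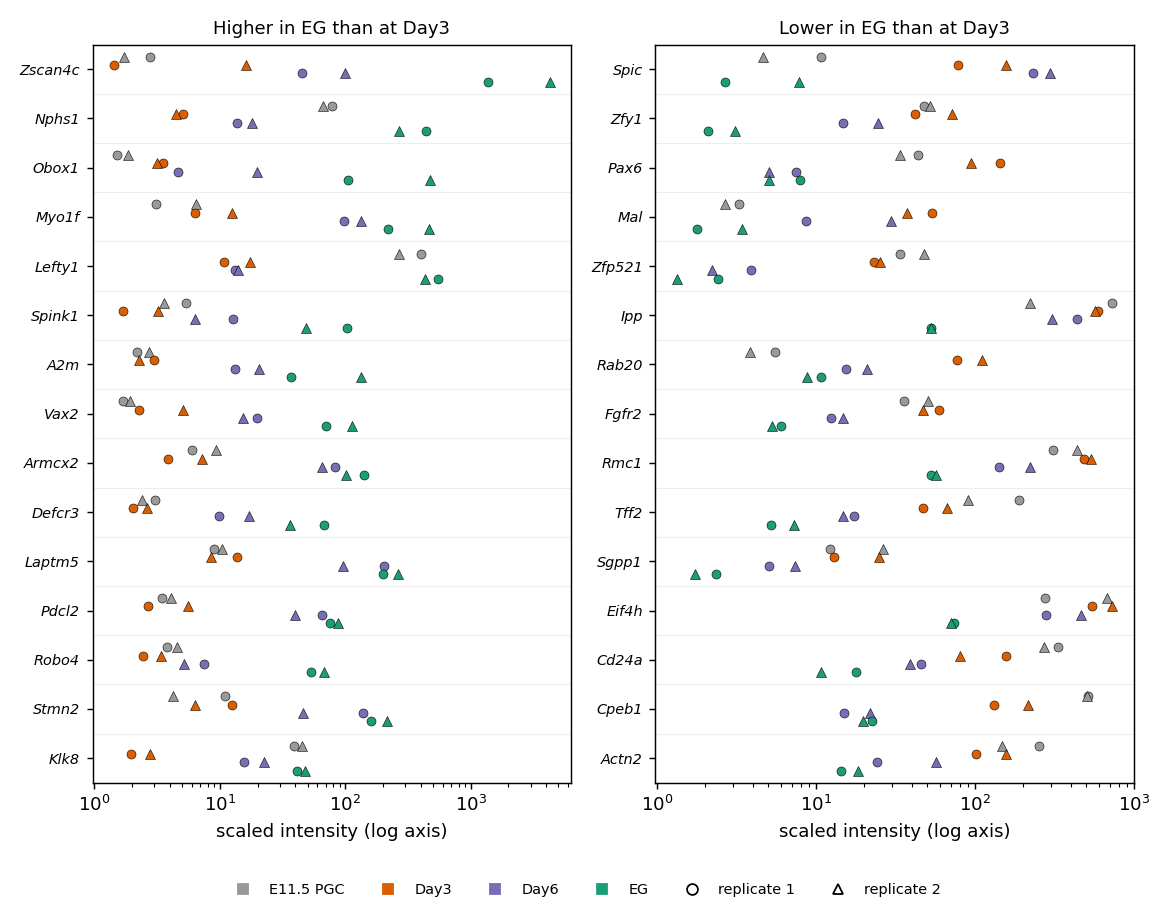
Scaled intensity on a log axis (x) for the 15 genes with the largest rises (left) and the 15 with the largest falls (right) among genes past the threshold (y), with colours for the 4 groups and symbols for the replicate. Day3 and EG readings do not overlap for any of these 30 genes, as the rule required; Day6 readings often lie between them, and those of Spic lie above both.

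The genes that fell furthest included 3 transcription factors of development. Spic, an Ets family factor, read 78.4 and 156 at Day3, then 231 and 294 by Day6 and 2.67 and 7.75 in EG, a fall of 4.60 ± 0.63 (adjusted p = 0.0254). Its highest readings were at Day6, and E11.5 PGC read 10.8 and 4.63, so Spic was high only in the 2 culture groups. Pax6, a paired-box factor of eye and brain, read 143 and 94.7 at Day3 but 7.42 and 5.04 by Day6 and 7.90 and 5.07 in EG (-4.20 ± 0.38, adjusted p = 0.00899). Zfp521, a zinc finger factor, read 23.1 and 25.3 at Day3 and 2.40 and 1.33 in EG (-3.76 ± 0.41, adjusted p = 0.0144).

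Fgfr2, a receptor for fibroblast growth factors, read 59.1 and 46.9 at Day3, then 12.3 and 14.6 by Day6 and 6.03 and 5.25 in EG (-3.23 ± 0.30, adjusted p = 0.0093). Cd24a, a surface glycoprotein, fell from 157 and 80.2 to 17.9 and 10.7 (-3.02 ± 0.41, adjusted p = 0.0254). Mal, a membrane raft protein, was high at Day3 (53.7 and 37.2) and low in both E11.5 PGC (3.24 and 2.66) and EG (1.77 and 3.43), a change of -4.18 ± 0.60 (adjusted p = 0.0296). Rab20, a small GTPase of the endosome, showed the same order, with 5.50 and 3.81 in E11.5 PGC, then 77.1 and 110.4 at Day3, 15.3 and 21.0 by Day6 and finally 10.7 and 8.78 in EG (-3.25 ± 0.34, adjusted p = 0.012). For Mal and Rab20 the Day3 readings were the highest of the 4 groups.

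Cpeb1, which controls the poly(A) tails of mRNAs in the egg, read 512 and 508 in E11.5 PGC, then 131 and 216 at Day3, 14.9 and 21.7 by Day6 and finally 22.5 and 19.7 in EG (-3.00 ± 0.34, adjusted p = 0.0158). Eif4h, a translation initiation factor, read 541 and 730.2 at Day3 and 73.4 and 70.8 in EG (-3.12 ± 0.47, adjusted p = 0.0342), and its Day6 readings of 278 and 462 were still within a few fold of Day3. Ipp, a kelch-repeat gene, fell by 3.46 ± 0.53 with a similar course (adjusted p = 0.0362). The remaining genes of the lowest 15 were Rmc1, Tff2, Sgpp1 and Actn2, with changes from -3.21 to -2.96 and adjusted p from 0.0115 to 0.0431. Both EG readings were near the floor for Mal, Zfp521, Sgpp1 and Zfy1, among 7 of the 76 probes that fell, and with the pseudocount their changes were -3.49, -2.91, -2.44 and -3.76. Zfy1, a zinc finger gene on the Y chromosome, read 42.1 and 71.4 at Day3 and 2.09 and 3.09 in EG (-4.43 ± 0.40, adjusted p = 0.00899). Kdm5d, another gene on the Y, read 31.2 and 40.7 at Day3 and 30.6 and 29.3 in EG (-0.25 ± 0.32, adjusted p = 0.775).

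Most regulators of naive pluripotency, the ground state that MEK and GSK3 inhibitors support, did not pass the test. Nanog read 2671 and 4321 at Day3 and 2422 and 4183 in EG, and the readings overlapped (-0.09 ± 0.46, adjusted p = 0.956). Prdm14, a repressor of differentiation, also overlapped (140.5 and 117 against 119.5 and 146; 0.04 ± 0.29, adjusted p = 0.97). Zfp42 read 3277 and 2865 at Day3 and 5342 and 5250.4 in EG, without overlap (0.79 ± 0.30, adjusted p = 0.267). Of 21 measured genes of the list, Nr0b1 rose and Spic fell (1.05% and 0.37% over all probes).

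Nr0b1, an X-linked nuclear receptor that binds pluripotency factors, read 77.0 and 75.1 in E11.5 PGC, then 187 and 301 at Day3, 933 and 671 by Day6 and finally 1850.2 and 1516 in EG. Every group lay above the one before it. The rise from Day3 to EG was 2.82 ± 0.33 (adjusted p = 0.0175), and 3.16 within series A. Klf4 read 326 and 234 at Day3 and 550.0 and 846 in EG (1.30 ± 0.32, adjusted p = 0.11), and Tbx3 59.5 and 149.6 against 160.4 and 209.6 (0.96 ± 0.66, adjusted p = 0.556, and 0.023 with the array series block). Klf2 had lower readings in EG (362 and 334 against 231 and 216; -0.64 ± 0.25, adjusted p = 0.272), and so did Tfcp2l1 (18.7 and 35.7 against 9.63 and 10.4; -1.37 ± 0.70, adjusted p = 0.409). Jam2, a junctional adhesion molecule on this list, read 42.9 and 144.8 at Day3 and 615 and 923 in EG (3.26 ± 0.59, adjusted p = 0.0532). With the block 5 members rose and 1 fell (3.18% and 2.5% over all probes). The median change of the list was 0.04, or 0.61 within series A.

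In the core pluripotency list, Tdgf1 was the one of 15 measured genes that rose, and 2 rose with the array series block. Over all probes 1.05% rose and 0.37% fell, or 3.18% and 2.5% with the block. Tdgf1 did not pass with the Day3 and EG arrays alone (adjusted p = 0.0791). Fgf4, a growth factor of the inner cell mass and of stem cells, read 1.82 and 2.46 in E11.5 PGC, then 21.7 and 53.5 at Day3, 149 and 257 by Day6 and finally 152 and 209.8 in EG (2.39 ± 0.50, adjusted p = 0.072, and 0.0112 with the block). Its Day6 and EG readings overlapped. Of 14 genes of the primed epiblast, the later state of the embryo, Lefty1 rose and Cldn6, a claudin of early epithelia, fell (149 and 164 at Day3, 49.4 and 29.2 in EG, -2.04 ± 0.34, adjusted p = 0.0431). Cldn6 did not pass with the Day3 and EG arrays alone (adjusted p = 0.0773). With the block 3 of the 14 rose and 1 fell. Otx2, a homeobox factor of the primed state, read 35.5 and 87.0 at Day3 and 276 and 333 in EG (2.45 ± 0.60, adjusted p = 0.107). Fgf5, its usual marker, was at or under 6.19 on all 4 arrays.

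In the list of later germ cell and piRNA genes, Dmrt1 was the one of 23 that passed. In the lists of early germ cell and meiosis genes 0 passed. Over all probes 1.42% passed. Both EG arrays lay below both Day3 arrays for 14 of the 23 genes and above for 2 (27.6% and 22.4% over all probes). Dmrt1, a transcription factor of germ and Sertoli cells, read 160.5 and 186 at Day3, then 25.0 and 48.6 by Day6 and 41.0 and 39.6 in EG (-2.10 ± 0.36, adjusted p = 0.0452, and 0.0523 with quantile normalization). Dazl, an RNA-binding protein that marks germ cells, showed the largest difference of the list. It read 2024 and 1867 in E11.5 PGC, then 999 and 1971 at Day3, 188 and 1024 by Day6 and finally 39.2 and 124 in EG (-4.33 ± 0.86, adjusted p = 0.0656, and 0.0432 with the array series block). The Day3 and Day6 readings of Dazl overlapped, and neither overlapped with EG.

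Several other germ cell genes had the same order without passing. Dppa3, also called Stella, read 5176 and 3798 at Day3 and 843 and 424 in EG (-2.89 ± 0.67, adjusted p = 0.0918). Dnd1, which protects germ cell mRNAs, read 568 and 288 at Day3 and 89.3 and 104 in EG (-2.07 ± 0.40, adjusted p = 0.0612, and 0.00982 with the block). Kit, the receptor for stem cell factor, read 324 and 251 against 63.3 and 97.6 (-1.86 ± 0.45, adjusted p = 0.103). Asz1, a piRNA pathway gene, read 711 and 464 in E11.5 PGC but 59.3 and 81.5 at Day3 and 4.89 and 9.76 in EG (-3.33 ± 0.73, adjusted p = 0.0804).

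Not all germ cell genes were lower. Ddx4, the Vasa helicase, overlapped between Day3 (277 and 175) and EG (201 and 191), with a change of -0.17 ± 0.31 (adjusted p = 0.85). Mael, a piRNA pathway gene, read 172 and 107 at Day3 and 455 and 493 in EG (1.80 ± 0.49, adjusted p = 0.134, and 0.0265 with the block). The list's median was -0.60 (-0.61 within series A), and 1 member rose and 5 fell with the block (3.18% and 2.5% over all probes). Over all probes, 3244 of 20554 had an unadjusted p under 0.05. Among 18 early germ cell genes limma called 0, or 1 lower with the block, and 5 had an unadjusted p under 0.05 (median -0.43). Among 26 meiosis genes it called 0, with 5 at an unadjusted p under 0.05 and a median of -0.39 (0.04 within series A); with the block 2 fell. Both EG arrays lay below both Day3 arrays for 8 of the meiosis genes and above for 6 (27.6% and 22.4% over all probes). The other 12 overlapped.

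**Figure D4:**
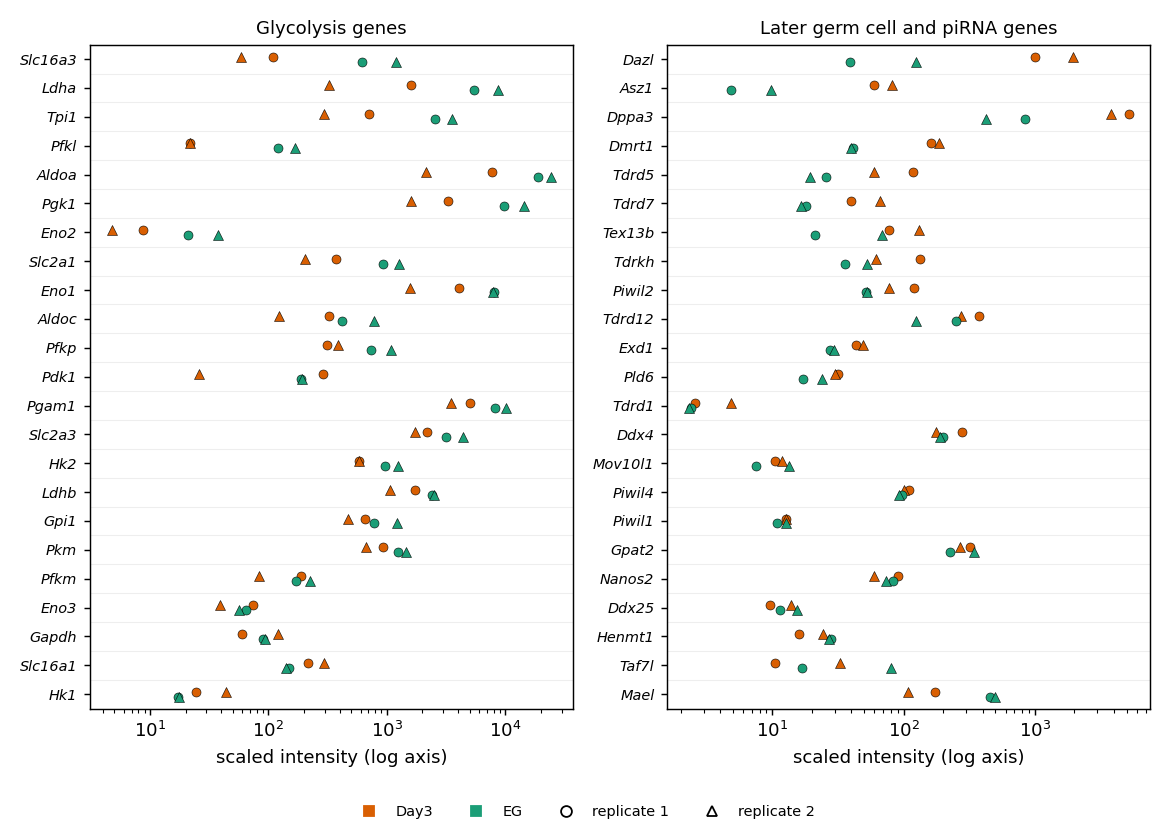
Scaled intensity on a log axis (x) on the 2 Day3 and 2 EG arrays for each measured gene (y) of the glycolysis list (left) and the later germ cell and piRNA list (right). Both EG arrays lay above both Day3 arrays for 17 of 23 glycolysis genes (22.4% over all probes), where Day3 replicate 2 was often the lowest. They lay below for 14 of 23 germ cell genes (27.6% over all probes).

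Glycolysis, the breakdown of glucose to pyruvate and lactate, is prominent in pluripotent stem cells. Genes of this pathway were higher in EG in most cases, with 1 past the threshold (1.05% of all probes rose, or 3.18% with the array series block). Slc16a3, which exports lactate, read 109 and 58.8 at Day3, then 92.7 and 43.6 by Day6 and 618 and 1200.0 in EG (3.43 ± 0.52, adjusted p = 0.0339). Neither culture group approached EG. Both EG arrays lay above both Day3 arrays for 17 of 23 genes and below for 2 (22.4% and 27.6% over all probes). The median change was 1.13 (0.85 within series A).

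The Day3 arrays differed widely for these genes. Ldha, which makes lactate, read 1598 and 326 at Day3, then 6229 and 677 by Day6 and 5427 and 8669 in EG (3.25 ± 1.11, adjusted p = 0.222). Replicate 1 of Day6 lay in the range of EG, and replicate 2 did not. Aldoa, an aldolase, read 7687 and 2124 at Day3 and 19061 and 24457 in EG (2.42 ± 0.81, adjusted p = 0.212, and 0.0275 with the array series block). Pgk1, a glycolytic kinase on the X, read 3274 and 1607 against 9750.0 and 14489.9 (2.37 ± 0.61, adjusted p = 0.118, and 0.0412 with the block). Pfkl, a phosphofructokinase, had close Day3 readings of 21.6 and 21.9, against 121 and 167 in EG (2.71 ± 0.49, adjusted p = 0.0524).

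The block gave 6 glycolysis genes that rose, and 0 passed without either Day3, EG or E11.5 PGC array. Hk1, a hexokinase (24.6 and 44.3 against 17.1 and 17.6), and Slc16a1, another monocarboxylate transporter (218 and 295 against 150.5 and 140.0), had lower readings in EG, with adjusted p of 0.372 and 0.346. Pdk1, which keeps pyruvate out of mitochondria, read 289 and 26.1 on the Day3 arrays, on either side of EG (188 and 193). Among 27 genes of oxidative phosphorylation limma called 0, with or without the block, and 0 had an unadjusted p under 0.05. The median change there was -0.06 (-0.39 within series A).

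In the list of DNA methylation genes limma called 0 of 21, with 11 at an unadjusted p under 0.05 (3244 of 20554 over all probes). The median was -0.04, and the block gave 5 that rose and 1 that fell (3.18% and 2.5% over all probes). Dnmt3l, a cofactor of the de novo methyltransferases, read 4.20 and 3.38 in E11.5 PGC, then 96.7 and 22.5 at Day3, 717 and 122 by Day6 and finally 902 and 738 in EG (4.13 ± 0.91, adjusted p = 0.0827, and 0.0276 with the block). Day3 replicate 2 and Day6 replicate 2 were both well below their partners. Dnmt3a read 12.6 and 36.8 at Day3 and 131 and 115 in EG (2.51 ± 0.50, adjusted p = 0.0677, and 0.0138 with the block). Dnmt3b, by contrast, overlapped (725 and 415 against 974 and 612; 0.49 ± 0.41, adjusted p = 0.632).

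Uhrf1, which recruits the maintenance methyltransferase, read 741 and 355 at Day3 and 1656 and 1434 in EG (1.59 ± 0.49, adjusted p = 0.178), whereas its relative Uhrf2 read 245 and 291 at Day3 and 66.8 and 69.3 in EG (-1.97 ± 0.35, adjusted p = 0.051). Among 23 imprinted genes, those expressed from one parental copy, Plagl1 fell (0.37% over all probes). With the block 2 of the list rose and 2 fell (3.18% and 2.5% over all probes). Plagl1 read 314 and 153 in E11.5 PGC, then 903 and 657 at Day3, 2152 and 2258 by Day6 and finally 78.2 and 164 in EG (-2.77 ± 0.48, adjusted p = 0.0465). That call was lost with centring on probes measured on all arrays (adjusted p = 0.054), with the Day3 and EG arrays alone (0.0619), with series A alone (0.0582) and when any 1 array was left out (0.0519 to 0.28). H19, a maternally expressed RNA, read 72.1 and 19 at Day3, then 3.70 and 3.67 by Day6 and 149.8 and 201 in EG (2.23 ± 0.57, adjusted p = 0.119), while Igf2, its neighbour, was at or under 8.30 on all 4 arrays compared.

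**Figure D5:**
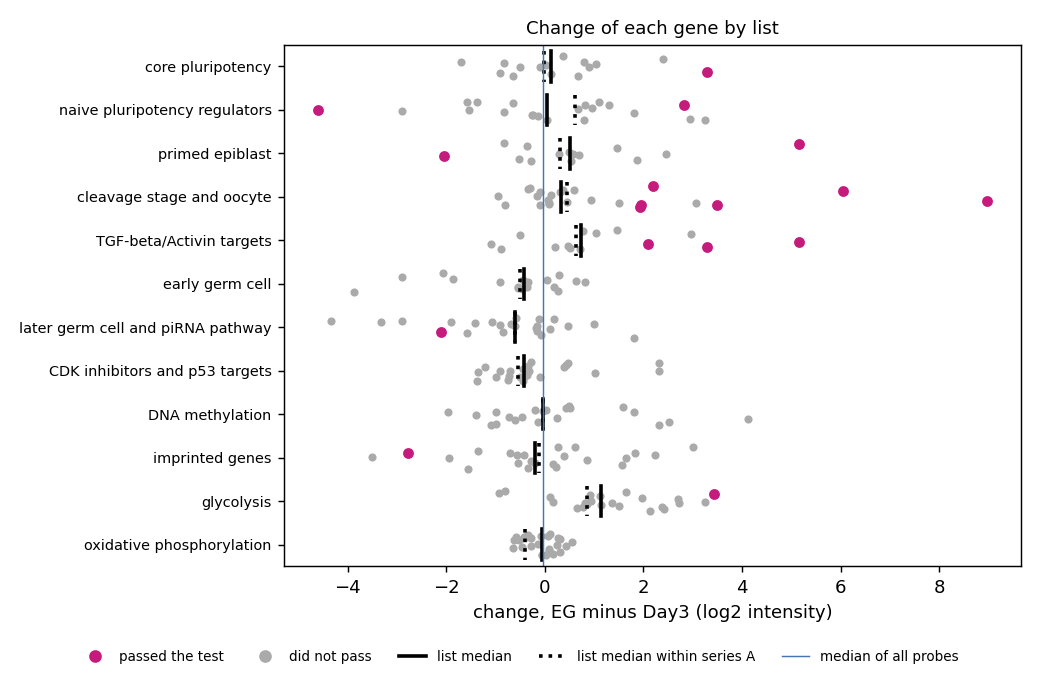
Change from Day3 to EG on the log2 intensity scale (x) for each measured gene of 12 lists (y), with genes past the threshold in pink, list medians as black lines (dotted within series A) and the median of all probes (-0.04) as a blue line. The glycolysis genes lie mostly to the right, with a median of 1.13, and the cleavage-stage list holds 6 of the genes past the threshold.

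Genes of growth arrest and survival did not pass in number. Of 23 CDK inhibitors and p53 targets limma called 0, with 9 at an unadjusted p under 0.05 (3244 of 20554 over all probes). With the block 2 of the 23 rose and 2 fell (3.18% and 2.5% over all probes). Both EG arrays lay below both Day3 arrays for 14 of them and above for 4 (27.6% and 22.4% over all probes), and the median was -0.42 (-0.54 within series A). Cdkn1a, which encodes the CDK inhibitor p21, read 71.6 and 31.1 in E11.5 PGC, then 357 and 209 at Day3, 361 and 219 by Day6 and finally 115 and 122 in EG (-1.21 ± 0.49, adjusted p = 0.293, and 0.0186 with the block). The readings at both culture days were alike and above those of EG. Pmaip1, a p53 target that promotes cell death, read 122 and 32.2 at Day3 and 259.9 and 372 in EG (2.31 ± 0.71, adjusted p = 0.177). Mcl1, a survival factor of the Bcl2 family, read 604 and 613 at Day3 and 2264 and 2432 in EG (1.95 ± 0.38, adjusted p = 0.0612). Of 14 measured genes of that family limma called 0, with 3 at an unadjusted p under 0.05 and a median of -0.41. Both EG arrays lay below both Day3 arrays for 7 of the 14 and above for 4 (27.6% and 22.4% over all probes). With the block 2 of the 14 rose and 1 fell. Lats2, a kinase of the Hippo pathway and itself a YAP target, fell from 78.0 and 55.6 to 12.6 and 17.2 (-2.16 ± 0.35, adjusted p = 0.0411), and was the one gene of 22 in the YAP and contractile list that passed (1.42% over all probes). Lats2 did not pass with centring on probes measured on all arrays (adjusted p = 0.055) or with the Day3 and EG arrays alone (0.0592). The median of that list was -0.40, or -0.78 within series A and 0.10 without Day3 replicate 1.

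The next lists cover pathways that the inhibitors and growth factors of the shared medium act on, together with BMP targets. They were MEK/ERK targets (17 genes measured), Wnt targets (12), BMP targets (10) and the LIF/STAT3 pathway (17). In them 0 genes passed, against 1.42% of all probes, with medians of 0.11, 0.15, 0.49 and -0.19. Within series A these medians were -0.06, 0.00, -0.29 and -0.24, and without EG replicate 1 those of the MEK/ERK and BMP lists were -0.15 and -0.03. The limma fit gave 4, 2, 3 and 6 of them an unadjusted p under 0.05, and the block called 1, 2, 1 and 1. Over all probes the limma fit gave 3244 of 20554 such a p, and the block called 5.68%. At the adjusted threshold limma also called 0 of 25 cell cycle genes (median 0.01, and -0.38 within series A), 28 chromatin and Polycomb genes (-0.18), 23 genes of the integrated stress response (0.41) and 15 of cholesterol synthesis and uptake (-0.15), with 5, 6, 3 and 2 at an unadjusted p under 0.05. The block called 2 chromatin genes and 0 of the other 3 lists. The median standard error over all probes was 0.361, with 2 arrays per group.

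Markers of other cell types were checked in the same arrays. Fibroblast and mesenchyme markers summed to 3254 and 2403 at Day3 and 3261 and 2562 in EG. Of 24 measured, limma called 0 and the block 0. At an unadjusted p under 0.05 there were 5, against 3244 of 20554 over all probes. Dcn, a matrix proteoglycan on that list, read 75.9 and 173 at Day3 and 16.3 and 6.32 in EG (-3.50 ± 0.76, adjusted p = 0.0798), and Thy1, a surface marker, 5.37 and 1.86 against 96.6 and 71.0 (4.71 ± 1.72, adjusted p = 0.25). Gonadal somatic markers summed to 189.0 and 142.0 at Day3 and 138.8 and 175.9 in EG. There limma called 0 of 15 (4 unadjusted, 1 with the block). Over all probes the block called 5.68%. Sums and counts take in only genes with a value on both arrays of both groups, which left 15 of the 22 gonadal genes listed. A probe of Kitl, also on the gonadal list, was left out. It read 70.2 and 21.7 at Day3 and had no value in EG. Extraembryonic markers summed to 338.7 and 216.8 against 327.6 and 336.3, and limma called 0 of 16 (5 unadjusted, 0 with the block).

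Blood and myeloid markers summed to 1217 and 292.3 at Day3 and 2326 and 2060 in EG. Laptm5 was the one of 12 that passed, the block gave 3 that rose, and the median change was 1.03 (1.08 within series A). Over all probes 1.05% rose, or 3.18% with the block. On every one of these 4 arrays but Day3 replicate 2, most of the sum was Lgals3, a galectin of many cell types (1000.1 and 98.4 at Day3, 1719.7 and 1380.5 in EG; adjusted p = 0.438). The defining marker Ptprc (CD45) was at or under 4.53 on all 4 arrays. Endothelial markers summed to 576.8 and 527.3 at Day3 and 757.1 and 750.9 in EG, and Robo4 was the one of 17 that passed, with or without the block. Vwf was at or under 5.67 on all 4 arrays. What part these cell types had in the rises of Laptm5 and Robo4 was not tested beyond these readings.

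Some probes had values in one group only. Both EG arrays and neither Day3 array had a value at 112 probes, and the reverse held at 153, with median intensities of 1.65 and 1.63, so most were dim. The brightest of those with Day3 values only was Kitl, the ligand of Kit and a gene of the gonadal list (70.2 and 21.7 at Day3, 27.7 and 6.31 at Day6). Isl2, a LIM homeobox gene, read 140.4 and 210.4 in E11.5 PGC, 25.2 and 37.2 on the Day3 arrays and 2.31 and 4.74 at Day6, with no value in EG. Of those with EG values only, Ifi202b, an interferon-inducible gene, read 24.6 and 7.78, and Epx, a peroxidase, 10.5 and 10.2. The reason for missing values is not stated in any source used here, so these probes carry no fold and no test.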

How the data were processed

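Total RNA of 8 samples was amplified as aminoallyl aRNA, labelled with Cy5 and hybridised to one-colour TORAY oligonucleotide arrays, per the labels' protocols. The deposited values are linear intensity, one column per array, scaled by the authors so that each array's median lies near 20 (19.99 to 20.01). How background was corrected, how arrays were scaled and why values are missing is not given in the sources used here. Of 23473 probes in the file, 19524 were measured on every array; probes with a missing value were dim (median intensity 1.95, against 27.6). Between 21126 and 22404 probes had a value on each array. The platform annotation gave one symbol for 16631 probes and none for 6842; 3947 older symbols were updated through RefSeq synonyms and 62 were kept. Pou5f1 and Sox2 had no named probe and were not analysed here.

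Intensities were converted to log2 with no further normalization. limma 3.58.1 in R 4.3.3 fitted one model to all 8 arrays in 4 groups, so that groups of 2 share one estimate of the spread. EG minus Day3 was tested two-sided at probes with values on both arrays of both groups, with Benjamini-Hochberg adjustment over all of them and a threshold of 0.05. Errors are standard errors of that fit. For genes with several probes the brightest was used. A reading under 4.24, the 25th percentile of mean intensities, is called near the floor. The number of arrays limits the precision.

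Genes were named by rule: the 15 highest and 15 lowest changes past the threshold without overlap, up to 6 members of each list, 20 markers, and the 8 brightest probes measured in one group only. Members and lists were chosen with earlier results of these data known. Further genes of the lists, and the promoter features, were chosen after their values were seen. Lists are described by counts and medians, with no test. Replicate numbers did not pair Day3 with EG (correlation of deviations 0.005 across 19524 probes), although these correlations were 0.62 for E11.5 PGC with Day3, 0.547 for E11.5 PGC with Day6 and 0.694 for Day3 with Day6, which share the 2 array series. Alternatives were other normalizations, a pseudocount, a filter on dim probes, other sample sets, blocks, variance moderation, and leaving out each array.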

Additional observations from a re-analysis of the deposited data

How the results depend on the processing

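All 292 probes kept their direction under each alternative in which they were tested, and none of the named genes reversed. For the 292 this was fixed beforehand where 1 array was left out or series A was used alone. The Day3 and EG readings do not overlap at any of them. A replicate block, trended and robust variances, and the Day3 and EG arrays alone leave the changes themselves as they were. The number of probes past the threshold differed between settings. It was 359 with quantile normalization, 233 with centring on probes measured on all arrays and 383 without the dimmest probes (mean intensity under the 25th percentile), where 122 fell. It was 502 with a pseudocount of 1.614 (335 higher, 167 lower), 451 with trended and robust variances (152 lower) and 193 with the Day3 and EG arrays alone (45 lower). The array series block gave 1167 (654 higher, 513 lower) and the arrays of series A alone 672 (427 higher, 245 lower). A replicate block gave 849 (515 higher, 334 lower), but the numbers did not pair Day3 with EG. Leaving out 1 array at a time gave 0 to 422 probes, 0 to 293 higher and 0 to 129 lower, lowest without Day3 replicate 1 and highest without either Day6 array. Of 60 named genes past the threshold, 3 were lost with quantile normalization, 5 with centring and 16 with the Day3 and EG arrays alone. Of the list medians, 87 of 561 recomputed values moved by more than a yardstick taken from the median signed difference between replicates over each list's genes. Signed differences can cancel, and the yardstick ran from 0.015 for the gonadal list to 0.617 for the YAP and contractile list. It is therefore a net shift of the list and no measure of the spread of single genes.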

Other observations

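Genes of the X chromosome were counted after the values of several X-linked genes had been seen. Of 484 measured X-linked genes 15 rose in EG (3.1%) and 0 fell, against 131 of 14115 autosomal genes that rose (0.928%) and 64 that fell (0.453%). The median change was 0.08 on the X (0.14 within series A) and -0.08 on the autosomes. With the array series block, 38 X-linked genes rose (7.85%) and 1 fell, against 2.99% of autosomal genes that rose. Armcx1, the neighbour of Armcx2, read 5.12 and 15.2 at Day3, then 157 and 162 by Day6 and 152 and 156 in EG (4.13 ± 0.50, adjusted p = 0.0183). Itm2a, a membrane protein, rose by 3.66 ± 0.50 (adjusted p = 0.0254). Usp11, a deubiquitinase, read 24.4 and 23.9 in E11.5 PGC, then 7.08 and 11.495 at Day3, 7.82 and 12.4 by Day6 and finally 43.7 and 52.1 in EG (2.40 ± 0.36, adjusted p = 0.0314). The sex of the embryos and lines is not stated in any source used here, so any part of it in these counts cannot be told apart from the culture stage.

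The next 4 genes were also named after their values were seen, and were on no list. Zc3hav1, which binds viral RNA, read 214 and 157 at Day3, then 147 and 157 by Day6 and 26.7 and 42.8 in EG (-2.44 ± 0.37, adjusted p = 0.0331). Rnf213, an interferon-inducible ubiquitin ligase, read 430.0 and 223 at Day3 and 41.7 and 61.8 in EG (-2.61 ± 0.43, adjusted p = 0.0431). Parp12 fell from 69.5 and 100.3 to 16.2 and 15.8 (-2.38 ± 0.32, adjusted p = 0.0246), and Parp9 from 167 and 166 to 58.8 and 47.4 (-1.66 ± 0.26, adjusted p = 0.0362). With the Day3 and EG arrays alone, Parp9, Rnf213 and Zc3hav1 did not pass (adjusted p = 0.0762, 0.0661 and 0.0547). Ifi202b, also interferon-inducible, had values in EG but not at Day3. Of 14 measured genes of MHC class I and antigen presentation limma called 0, with a median of -0.35. Both EG arrays lay below both Day3 arrays for 6 of these 14 and above for 4 (27.6% and 22.4% over all probes).

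Duxbl1, a double homeobox gene with near-identical copies, was also named after its values were seen. It read 79.1 and 80.6 in E11.5 PGC, then 5.17 and 5.39 at Day3, 5.03 and 9.11 by Day6 and finally 69.9 and 98.7 in EG (3.98 ± 0.35, adjusted p = 0.00899). Like Lefty1, it was bright in E11.5 PGC and EG and dim on the 4 culture arrays between them. Igfbp2, a binding protein for insulin-like growth factors, was already brighter at Day6, with 143 and 319 at Day3, then 1738 and 2109.9 by Day6 and 2319 and 3881 in EG (3.81 ± 0.45, adjusted p = 0.0175).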
